A study of Mus musculus with 12 samples.

Results

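The 10 genes Atf4, Ddit3, Xbp1, Trib3, Chac1, Sesn2, Asns, Psat1, Phgdh and Hspa5, which belong to the ATF4 and unfolded protein responses, were followed in 12 mouse tumors by bulk RNA-sequencing. The members were listed by gene symbol, with earlier results of these data known. Each was found as 1 entry among the 34678 gene symbols measured in every tumor. All tumors grew in C57BL/6 mice from LLC1-shLkb1 cells, a Lewis lung cancer line in which a short hairpin RNA knocks down Lkb1 (Stk11), the kinase that activates AMPK. The paper grew such tumors under the skin and in the left chest, and its text does not give the site of the sequenced ones. The 4 arms held 3 tumors each and consisted of vehicle (a control immunoglobulin), palbociclib (an inhibitor of the cell-cycle kinases CDK4 and CDK6), anti-PD-1 antibody (which blocks a T-cell checkpoint receptor), and both agents combined. Male and female mice were used, and their sex is not given per tumor. All arms share the knockdown and the 1 cell line, and no tumor with intact Lkb1 was among the samples, so the Stk11 level checks no contrast. Stk11 itself was 10.6, 11.5 and 9.74 FPKM with vehicle, 9.72, 9.51 and 10.3 FPKM with palbociclib, 9.28, 10.7 and 7.90 FPKM with anti-PD-1 and 8.60, 11.4 and 10.3 FPKM with the combination. These values overlapped among all 4 arms.

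ATF4 is a transcription factor whose mRNA is translated more efficiently when the initiation factor eIF2alpha is phosphorylated, which happens under amino acid shortage, endoplasmic reticulum (ER) stress, viral double-stranded RNA or heme shortage. It drives genes of amino acid import, amino acid synthesis and tRNA charging, and with its partner CHOP (Ddit3) it drives stress effectors such as Trib3 and Chac1. The unfolded protein response has the ER sensors PERK, which phosphorylates eIF2alpha, IRE1, which splices the Xbp1 mRNA, and ATF6, which is cut to release a transcription factor. XBP1 and ATF6 raise ER chaperones, of which BiP (Hspa5) is the best known. Because ATF4 is controlled in large part by translation and XBP1 by splicing, gene-level mRNA reports these steps only through their targets.

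The promoters of the members were read from RefSeq (GRCm38.p6, 250 bases before and 50 bases after each annotated start site), and all 10 members matched, with 11 promoters because Psat1 has 2. Those that hold a C/EBP-ATF response element (CARE, searched as TGATGNAAN on both strands) or an ER stress response element (ERSE, CCAAT and CCACG separated by 9 bases, on both strands) are printed below, with the matching letters in capitals. A CARE is the element bound by ATF4 with a C/EBP partner, and an ERSE is the element bound by ATF6 or XBP1 together with NF-Y. A CARE was present in 3 members, Trib3, Chac1 and Asns, and an ERSE in Hspa5.
Trib3, chr2:152344011-152344310, minus strand: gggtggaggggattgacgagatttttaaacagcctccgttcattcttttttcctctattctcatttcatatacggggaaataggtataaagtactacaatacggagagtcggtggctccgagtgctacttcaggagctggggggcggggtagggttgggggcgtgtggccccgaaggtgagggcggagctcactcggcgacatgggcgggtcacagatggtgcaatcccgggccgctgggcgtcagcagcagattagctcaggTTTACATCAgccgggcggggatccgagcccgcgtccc
Chac1, chr2:119350992-119351291, plus strand: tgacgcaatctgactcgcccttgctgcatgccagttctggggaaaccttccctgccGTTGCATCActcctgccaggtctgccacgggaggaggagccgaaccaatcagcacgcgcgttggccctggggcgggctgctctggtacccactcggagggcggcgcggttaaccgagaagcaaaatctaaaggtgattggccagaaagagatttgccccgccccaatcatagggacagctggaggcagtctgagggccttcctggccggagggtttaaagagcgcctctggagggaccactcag
Asns, chr6:7693160-7693459, minus strand: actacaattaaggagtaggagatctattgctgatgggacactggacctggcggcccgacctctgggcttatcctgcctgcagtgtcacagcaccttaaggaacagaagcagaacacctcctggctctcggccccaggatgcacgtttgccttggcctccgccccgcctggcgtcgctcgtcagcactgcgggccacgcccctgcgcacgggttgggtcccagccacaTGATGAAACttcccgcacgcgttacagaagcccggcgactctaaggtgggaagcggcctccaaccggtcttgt
Hspa5, chr2:34771840-34772139, plus strand: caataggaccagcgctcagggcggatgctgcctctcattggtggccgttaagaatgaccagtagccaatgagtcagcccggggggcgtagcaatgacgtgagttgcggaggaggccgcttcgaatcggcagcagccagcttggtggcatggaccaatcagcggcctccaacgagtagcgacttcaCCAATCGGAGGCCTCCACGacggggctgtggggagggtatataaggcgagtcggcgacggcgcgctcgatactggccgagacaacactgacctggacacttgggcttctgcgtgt
The match begins 13 bases after the start site in Trib3 (minus strand of the gene), 194 bases before it in Chac1 (minus strand), 23 bases before it in Asns (plus strand) and 65 bases before it in Hspa5 (plus strand). Of the 32851 promoters in the table, 1299 (3.95%) hold a CARE and 39 (0.119%) an ERSE. The ERSE contains CCAAT and CCACG, which alone are present in 37.4% and 32.8% of promoters. A match describes letters in this window, and the other 7 promoters hold neither element within these 300 bases.

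Each tumor was read to an estimated 14900000 to 20300000 fragments, inferred from the steps between low FPKM values, and between 17318 and 18499 genes were above 0. FPKM, the authors' fragments scaled to gene length and library size, allows levels to be compared between genes per length. On this estimate Chac1, the lowest member, rests on 88 to 604 fragments per tumor, so that counting alone gives an error of up to 10.7%, and Atf4 rests on 11998 to 26525. Although the tumors are labelled as lung adenocarcinoma, the epithelial markers Epcam, Krt18 and Krt19 lay between 0 and 5.08 FPKM, whereas Krt8 lay between 62.0 and 276 FPKM. Some tumors stood apart from the rest of the set. Vehicle replicate 2 held the lowest value of the 12 tumors for 20.8% of the genes tested and the highest for 18.4%. Genes of adjoining tissue were unevenly present, with the sum of 4 fat cell markers at 804 FPKM in combination replicate 1 and 335 FPKM in palbociclib replicate 1, against at most 0.754 FPKM in the vehicle and anti-PD-1 tumors. The sum of 4 skin keratinocyte markers reached 356 FPKM in palbociclib replicate 2. The sum of 5 skeletal muscle markers was 51.1 FPKM in vehicle replicate 1, 147 in palbociclib replicate 3 and 143 in combination replicate 2. In the remaining tumors it was at most 9.73 FPKM. In bulk tumors, fewer cells of a type and less RNA per cell cannot be told apart. The limma p-values set a difference between arms of 3 tumors against a spread between tumors pooled over the 4 arms. The correlation p-values come from shuffling the tumors, over the whole set or within arms.

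The members spanned a wide range of levels. Atf4 had the highest mean over the 12 tumors at 421 FPKM, rank 67 among all genes, followed by Hspa5 at 215 FPKM and Phgdh at 103 FPKM. These 3 did not overlap, and the same order was seen in 12 of 12 tumors. Psat1 (46.7 FPKM), Asns (42.7 FPKM), Xbp1 (29.9 FPKM), Trib3 (21.97 FPKM), Sesn2 (21.9 FPKM) and Ddit3 (18.5 FPKM) formed a middle group in which neighbours overlapped. Psat1 exceeded Asns in 9 of 12 tumors and Trib3 exceeded Sesn2 in 7 of 12. Chac1 was lowest at a mean of 8.04 FPKM, rank 5553, and lay below Ddit3 in each of the 12 tumors.

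**Figure D1:**
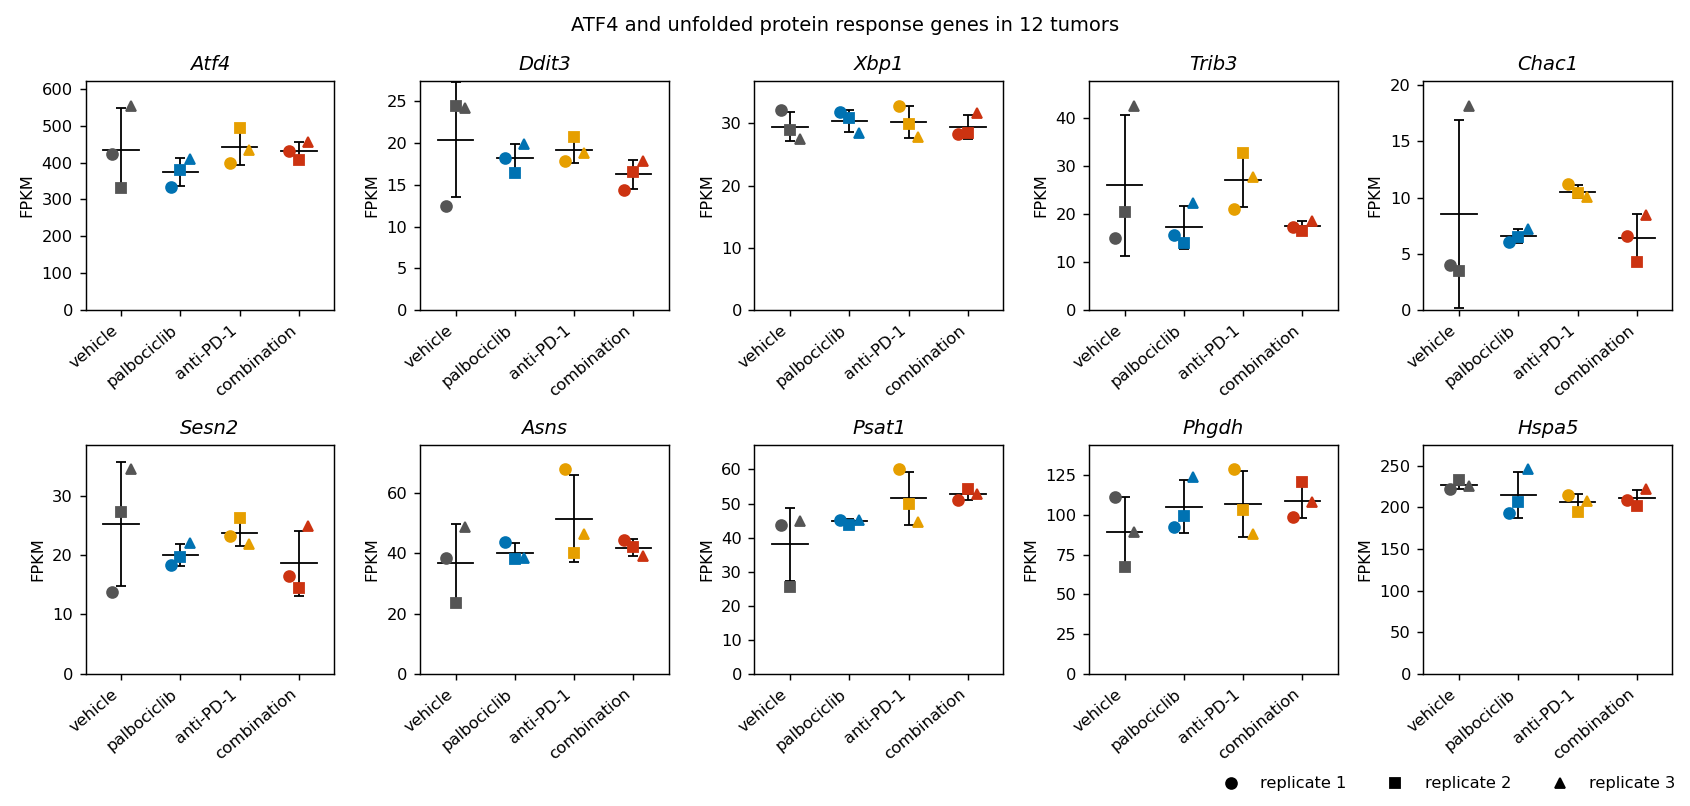
FPKM of the 10 genes (y axes, starting at 0) in the 12 tumors by arm (x axes), with circles, squares and triangles for replicates 1, 2 and 3, horizontal lines for arm means and error bars for 1 SD over 3 tumors. The vehicle tumors spread from 3.49 to 18.2 FPKM for Chac1 and from 15.0 to 42.6 FPKM for Trib3, whereas Hspa5 and Xbp1 stayed within a narrow band.

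The comparisons were made with limma on log2(FPKM + 0.1) over 15350 genes whose mean FPKM reached 0.1, all 10 members included, and p-values were adjusted over all of these genes by the Benjamini-Hochberg method. The palbociclib effect averages palbociclib minus vehicle and combination minus anti-PD-1, and thus uses every tumor. It asks whether CDK4/6 inhibition changed these genes with or without the antibody. None of the 10 members passed an adjusted p of 0.05 in it, while 0.313% of all genes tested did (48 genes). Before adjustment, 1 member (Trib3) had a limma p under 0.05, against 20.5% of all genes. The difference was negative for 7 members and positive for 3, with a median of -0.07 on the log2 scale against 0.06 over all genes.

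Among the transcription factors, Atf4 (chr15:80255184-80257541, plus strand) was 422, 329.8 and 554 FPKM with vehicle, 334, 379.6 and 410.4 FPKM with palbociclib, 398, 493 and 433 FPKM with anti-PD-1 and 431, 406 and 457 FPKM with the combination. The highest and the lowest tumor both belonged to the vehicle arm, and the 4 arms overlapped. The palbociclib effect on Atf4 was -0.11 on the log2 scale (SE 0.12, 95% confidence interval -0.38 to 0.16, limma adjusted p = 0.635). It ranged from -0.20 without vehicle replicate 2 to -0.014 without vehicle replicate 3.

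Ddit3 (chr10:127290774-127296288, plus strand), which encodes CHOP, was 12.5, 24.5 and 24.3 FPKM with vehicle, 18.2, 16.4 and 19.9 FPKM with palbociclib, 17.8, 20.7 and 18.9 FPKM with anti-PD-1 and 14.4, 16.5 and 17.8 FPKM with the combination. Vehicle replicates 2 and 3 were the highest tumors, vehicle replicate 1 was the lowest, and no arm stood clear of another. GENCODE M21 lists another overlapping locus under the same name, which makes the assignment of fragments to Ddit3 uncertain. For Ddit3 the palbociclib effect came to -0.17 on the log2 scale (SE 0.15, 95% confidence interval -0.51 to 0.17, limma adjusted p = 0.542). Without vehicle replicate 1 the effect on Ddit3 became -0.33 with a limma adjusted p of 0.0486, the only case in which leaving out 1 tumor brought a member past the threshold, and in that fit 4.53% of all genes passed. Without vehicle replicate 2 or 3 it shrank to -0.091 or -0.095.

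Xbp1 (chr11:5520659-5525893, plus strand), whose spliced mRNA encodes the active factor of the IRE1 branch, was 32.1, 29.0 and 27.4 FPKM with vehicle, 31.9, 30.8 and 28.4 FPKM with palbociclib, 32.9, 29.9 and 27.9 FPKM with anti-PD-1 and 28.3, 28.4 and 31.6 FPKM with the combination. It varied by no more than 1.20-fold over the 12 tumors, with no arm apart from the rest. The palbociclib effect was 0.0046 on the log2 scale (SE 0.068, 95% confidence interval -0.14 to 0.15, limma adjusted p = 0.976), and it changed sign when the tumors were rescaled to TPM or quantile normalized. The tables give 1 value per gene, so spliced and unspliced Xbp1 mRNA were not separated. Leaving out 1 tumor gave values from -0.024 (without anti-PD-1 replicate 3) to 0.036 (without vehicle replicate 1).

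Of the stress effectors, Trib3 (chr2:152337422-152344032, minus strand), a pseudokinase induced by ATF4 and CHOP and a holder of the CARE shown above, was 15.0, 20.3 and 42.6 FPKM with vehicle, 15.6, 13.9 and 22.3 FPKM with palbociclib, 21.1, 32.6 and 27.7 FPKM with anti-PD-1 and 17.4, 16.5 and 18.6 FPKM with the combination. Its mean was 26.0 ± 14.6 FPKM (SD, n = 3) with vehicle, 17.3 ± 4.46 FPKM (SD, n = 3) with palbociclib, 27.2 ± 5.79 FPKM (SD, n = 3) with anti-PD-1 and 17.5 ± 1.05 FPKM (SD, n = 3) with the combination. Each combination tumor lay below each anti-PD-1 tumor, and the palbociclib and vehicle tumors overlapped. Trib3 had the largest palbociclib effect of the members, -0.54 on the log2 scale (SE 0.23, 95% confidence interval -1.04 to -0.040, limma adjusted p = 0.217), a ratio of 0.687. Leaving out 1 tumor moved this effect between -0.70 and -0.33, the weakest value being that without vehicle replicate 3. The difference of combination minus anti-PD-1 was -0.61 on the log2 scale (SE 0.32, 95% confidence interval -1.32 to 0.10, limma adjusted p = 0.474).

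Chac1 (chr2:119351229-119354381, plus strand), which degrades glutathione, was 3.98, 3.49 and 18.2 FPKM with vehicle, 6.06, 6.49 and 7.26 FPKM with palbociclib, 11.2, 10.4 and 10.02 FPKM with anti-PD-1 and 6.56, 4.27 and 8.44 FPKM with the combination. Vehicle replicate 3 was above all other tumors, whereas vehicle replicates 1 and 2 were among the 3 lowest. The 3 anti-PD-1 tumors were close to each other and above every palbociclib and combination tumor. The share of all genes that separate anti-PD-1 from palbociclib was not computed, and 18.8% separated anti-PD-1 from the combination. The palbociclib effect on Chac1 was -0.35 on the log2 scale (SE 0.35, 95% confidence interval -1.12 to 0.41, limma adjusted p = 0.581), and without vehicle replicate 3 it was 0.023. The difference of combination minus anti-PD-1 was -0.76 on the log2 scale (SE 0.49, 95% confidence interval -1.84 to 0.33, limma adjusted p = 0.547). That difference was -0.50 without combination replicate 2 and -0.98 without combination replicate 3.

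Sesn2 (chr4:132492032-132510501, minus strand), a leucine sensor that restrains mTORC1, was 13.8, 27.3 and 34.5 FPKM with vehicle, 18.2, 19.7 and 22.02 FPKM with palbociclib, 23.2, 26.2 and 21.9 FPKM with anti-PD-1 and 16.5, 14.4 and 24.9 FPKM with the combination. As for Ddit3, the vehicle arm held both the lowest tumor (replicate 1) and the highest (replicate 3). The palbociclib effect was -0.31 on the log2 scale (SE 0.21, 95% confidence interval -0.77 to 0.14, limma adjusted p = 0.401). Without vehicle replicate 1 the value for Sesn2 was -0.50, and without vehicle replicate 3 it was -0.18.

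Among the genes of amino acid synthesis, Asns (chr6:7675169-7693254, minus strand), asparagine synthetase and also a holder of a CARE, was 38.4, 23.4 and 48.8 FPKM with vehicle, 43.9, 38.3 and 38.5 FPKM with palbociclib, 68.0, 40.2 and 46.6 FPKM with anti-PD-1 and 44.6, 42.1 and 39.1 FPKM with the combination. Anti-PD-1 replicate 1 was the highest and vehicle replicate 2 the lowest. The palbociclib effect was -0.039 on the log2 scale (SE 0.17, 95% confidence interval -0.42 to 0.34, limma adjusted p = 0.919), and anti-PD-1 minus vehicle was 0.51 on the log2 scale (SE 0.25, 95% confidence interval -0.029 to 1.05, limma adjusted p = 0.609). The latter difference fell to 0.22 without vehicle replicate 2 and to 0.29 without anti-PD-1 replicate 1, and the palbociclib effect on Asns ranged from -0.19 without vehicle replicate 2 to 0.078 without vehicle replicate 3.

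Psat1 (chr19:15904678-15947337, minus strand), phosphoserine aminotransferase of the serine synthesis pathway, was 43.6, 25.6 and 44.8 FPKM with vehicle, 45.2, 43.8 and 45.2 FPKM with palbociclib, 60.1, 49.8 and 44.7 FPKM with anti-PD-1 and 50.9, 54.3 and 52.8 FPKM with the combination. Every combination tumor lay above every vehicle and every palbociclib tumor, and vehicle replicate 2 lay far below the remaining tumors. Its mean was 38.0 ± 10.7 FPKM (SD, n = 3) with vehicle and 52.7 ± 1.68 FPKM (SD, n = 3) with the combination. Combination minus vehicle was 0.51 on the log2 scale (SE 0.19, 95% confidence interval 0.10 to 0.92, limma adjusted p = 0.227) and without vehicle replicate 2 it was 0.25 (limma adjusted p = 0.503). Anti-PD-1 minus vehicle was 0.47 on the log2 scale (SE 0.19, 95% confidence interval 0.060 to 0.88, limma adjusted p = 0.58) and 0.21 without the same tumor (limma adjusted p = 0.971). The palbociclib effect on Psat1 was 0.16 on the log2 scale (SE 0.13, 95% confidence interval -0.13 to 0.45, limma adjusted p = 0.508). Without vehicle replicate 2 it was 0.029, and without vehicle replicate 3 it was 0.23.

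Phgdh (chr3:98313170-98339990, minus strand), phosphoglycerate dehydrogenase, which commits glucose carbon to serine, was 111, 67.5 and 89.3 FPKM with vehicle, 92.2, 99.5 and 124 FPKM with palbociclib, 129, 103 and 87.7 FPKM with anti-PD-1 and 98.5, 121 and 108 FPKM with the combination. The 4 arms overlapped, with anti-PD-1 replicate 1 and palbociclib replicate 3 highest and vehicle replicate 2 lowest. The palbociclib effect was 0.15 on the log2 scale (SE 0.14, 95% confidence interval -0.16 to 0.45, limma adjusted p = 0.554). For Phgdh it was 0.055 without vehicle replicate 2 and 0.24 without vehicle replicate 1.

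The chaperone gene Hspa5 (chr2:34771970-34777547, plus strand), whose promoter holds the ERSE, was 222, 233 and 226 FPKM with vehicle, 193, 206 and 246 FPKM with palbociclib, 215, 195 and 208 FPKM with anti-PD-1 and 209, 202 and 222 FPKM with the combination. The vehicle tumors were close together and above every anti-PD-1 and combination tumor, and the palbociclib arm held both the lowest and the highest tumor of the 12. The separation from the combination was narrow, with the lowest vehicle tumor at 222.4 FPKM and the highest combination tumor at 222.2 FPKM. Anti-PD-1 minus vehicle was -0.14 on the log2 scale (SE 0.10, 95% confidence interval -0.37 to 0.087, limma adjusted p = 0.714) and combination minus vehicle was -0.11 on the log2 scale (SE 0.10, 95% confidence interval -0.34 to 0.12, limma adjusted p = 0.607). The palbociclib effect was -0.026 on the log2 scale (SE 0.074, 95% confidence interval -0.19 to 0.14, limma adjusted p = 0.868). For Hspa5 it ranged from -0.076 without palbociclib replicate 3 to 0.011 without palbociclib replicate 1.

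**Figure D2:**
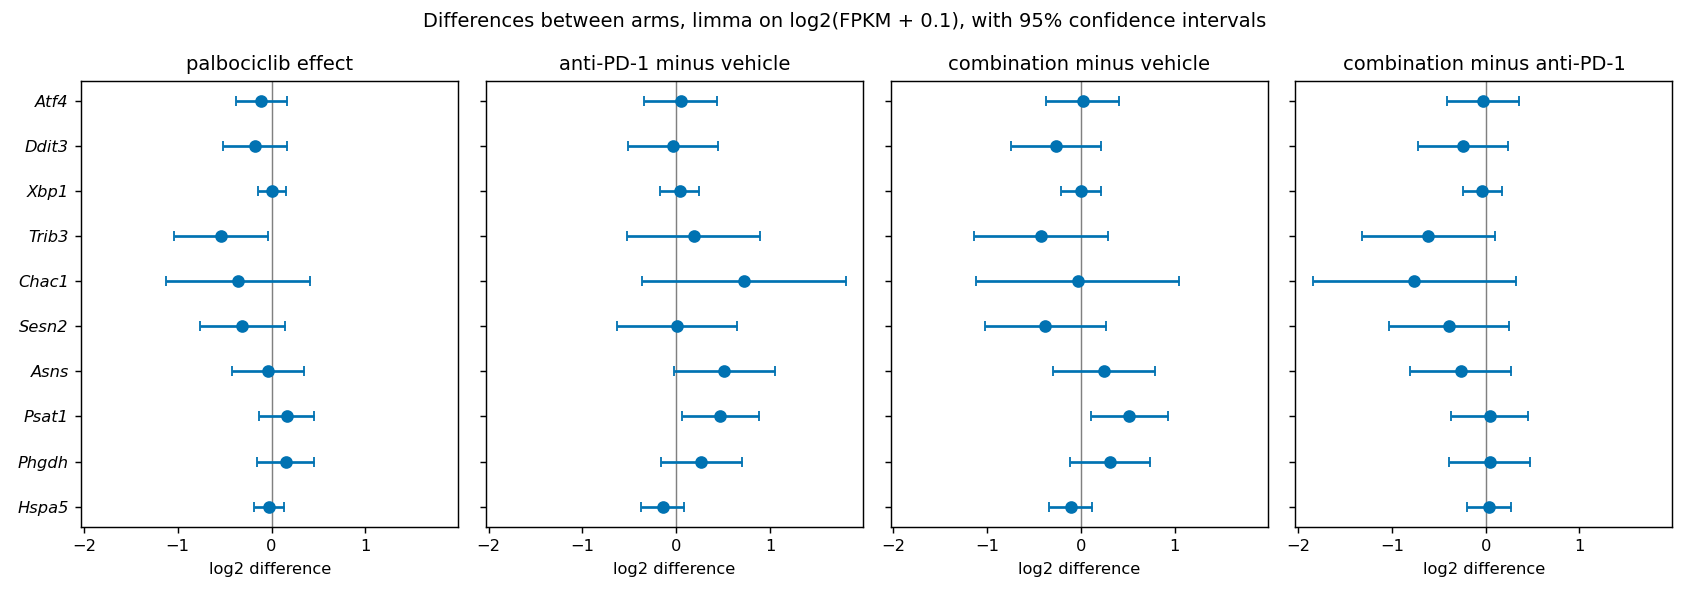
Log2 differences (x axes) of the 10 genes (y axis) from limma, with points for the estimates and bars for 95% confidence intervals, in the palbociclib effect, anti-PD-1 minus vehicle, combination minus vehicle and combination minus anti-PD-1. Only Trib3 in the palbociclib effect and Psat1 in both comparisons with vehicle have an interval that leaves out 0, and none of the 10 passes after adjustment over all genes.

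The pairwise comparisons asked how each treatment differed from vehicle and what the combination added to each agent. With limma, 0 of 10 members passed in palbociclib minus vehicle, where 0.143% of all genes did, and 0 members had an unadjusted p under 0.05 against 13.8% of genes. In anti-PD-1 minus vehicle 0 members and 0% of genes passed, with 1 member (Psat1) and 8.4% of genes under 0.05 before adjustment in limma. In combination minus vehicle 0 members passed against 0.013% of genes, with 1 member (Psat1) and 17% of genes under 0.05 before adjustment. In combination minus palbociclib and in combination minus anti-PD-1 0 members passed against 0.00651% of genes each, with 0 members under 0.05 before adjustment in limma beside 4.52% and 11.8% of genes. The interaction, which asks whether the palbociclib difference changed with the antibody, called 0 members and 0% of genes in limma, with 0 members and 5.73% of genes under 0.05 before adjustment. Its largest estimate among the members was that of Chac1, -0.81 on the log2 scale (SE 0.70, 95% confidence interval -2.35 to 0.72, limma adjusted p = 0.931), and it was -1.56 without vehicle replicate 3 and -0.39 without vehicle replicate 2. With 3 tumors per arm, the share of genes whose arms did not overlap gives a further background. No member separated palbociclib from vehicle, against 19.3% of genes. Hspa5 separated anti-PD-1 from vehicle (1 of 10 members, 11.3% of genes), and Psat1 and Hspa5 separated the combination from vehicle (2 of 10 members, 22.5% of genes). Psat1 separated the combination from palbociclib (1 of 10 members, 13.7% of genes), and Trib3 and Chac1 separated the combination from anti-PD-1 (2 of 10 members, 18.8% of genes). Apart from palbociclib against vehicle, where it was 0, the share of members was near that of all genes.

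The members differed widely in their spread between tumors. The SD within arms on the log2 scale was 0.70 for Chac1, 0.46 for Trib3 and 0.41 for Sesn2, which placed them above 89.7%, 76.7% and 73% of all genes tested, whose median was 0.24. Hspa5 and Xbp1, at 0.10 each, were above only 7.42% and 6.91% of genes. The vehicle arm had the largest SD of the 4 arms for 8 of the 10 members, against 37.6% of all genes, the exceptions being Xbp1 and Hspa5. Vehicle replicate 2 was the lowest tumor for 5 members (Atf4, Chac1, Asns, Psat1 and Phgdh), vehicle replicate 3 the highest for 4 (Atf4, Trib3, Chac1 and Sesn2), and anti-PD-1 replicate 1 the highest for 4 (Xbp1, Asns, Psat1 and Phgdh). By comparison, 20.8%, 6.53% and 13.4% of all genes were at their extreme in these tumors.

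Some members varied together over the 12 tumors. Of 45 pairs, 5 had a correlation of log2 values with an adjusted permutation p under 0.05, all of them positive. The share of pairs of all genes that correlate as strongly over these tumors was not computed, so the count cannot be read as particular to these genes. For Ddit3 and Sesn2, Pearson's r was 0.878 (permutation p = 0.00023, adjusted p = 0.0103) and Spearman's rho 0.839 (permutation p = 0.00122, adjusted p = 0.0549), and r was 0.844 without the 2 tumors farthest from the median. For Trib3 and Sesn2, Pearson's r was 0.777 (permutation p = 0.00279, adjusted p = 0.0418) and Spearman's rho 0.748 (permutation p = 0.00739, adjusted p = 0.0847), with r at 0.582 without the farthest 2. For Trib3 and Chac1, Pearson's r was 0.761 (permutation p = 0.00382, adjusted p = 0.043) and Spearman's rho 0.741 (permutation p = 0.00753, adjusted p = 0.0847), with r at 0.505 without them. Among these, only the pair of Ddit3 and Sesn2 includes CHOP, and the others join stress effectors with each other. Ddit3 had an r of 0.703 with Trib3 (adjusted permutation p = 0.0662) and 0.398 with Chac1 (adjusted permutation p = 0.478). The serine and asparagine genes made up the other pairs under 0.05. For Psat1 and Phgdh, Pearson's r was 0.820 (permutation p = 0.00267, adjusted p = 0.0418) and Spearman's rho 0.622 (permutation p = 0.035, adjusted p = 0.225), with r at 0.378 without the farthest 2. For Asns and Psat1, Pearson's r was 0.836 (permutation p = 0.00528, adjusted p = 0.0475) and Spearman's rho 0.538 (permutation p = 0.0762, adjusted p = 0.34), and r was -0.0453 without the farthest 2, so this relation rests on those tumors. Asns and Phgdh, the remaining pair of these 3 genes, had an r of 0.593 (permutation p = 0.0512, adjusted p = 0.209) and a rho of 0.021 (permutation p = 0.956, adjusted p = 0.991), and r was -0.720 without the farthest 2. The adjusted p of rho was above 0.05 in all 5 pairs. The number of pairs under 0.05 falls to 1 or 2 when any tumor is left out other than vehicle replicate 2 (7 pairs), palbociclib replicate 2 (4 pairs) and combination replicate 3 (5 pairs). With the arm means subtracted, r stayed at 0.864 for Ddit3 and Sesn2, 0.745 for Trib3 and Sesn2, 0.784 for Trib3 and Chac1, 0.797 for Psat1 and Phgdh and 0.874 for Asns and Psat1, but no pair had an adjusted p under 0.05 by the exact permutation test within arms (1296 arrangements).

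Atf4 mRNA correlated with Chac1 at r = 0.717 (rho 0.664) and with Trib3 at r = 0.700 (rho 0.587), each with an adjusted permutation p of 0.0662. Its r with Ddit3 was 0.106 (rho 0.133, permutation p = 0.745, adjusted p = 0.838). Ddit3 and Phgdh, one from each of these gene groups, had an r of -0.502 (rho -0.448, permutation p = 0.0949, adjusted p = 0.328). The lowest r of the 45 pairs was -0.522, for Xbp1 and Trib3.

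**Figure D3:**
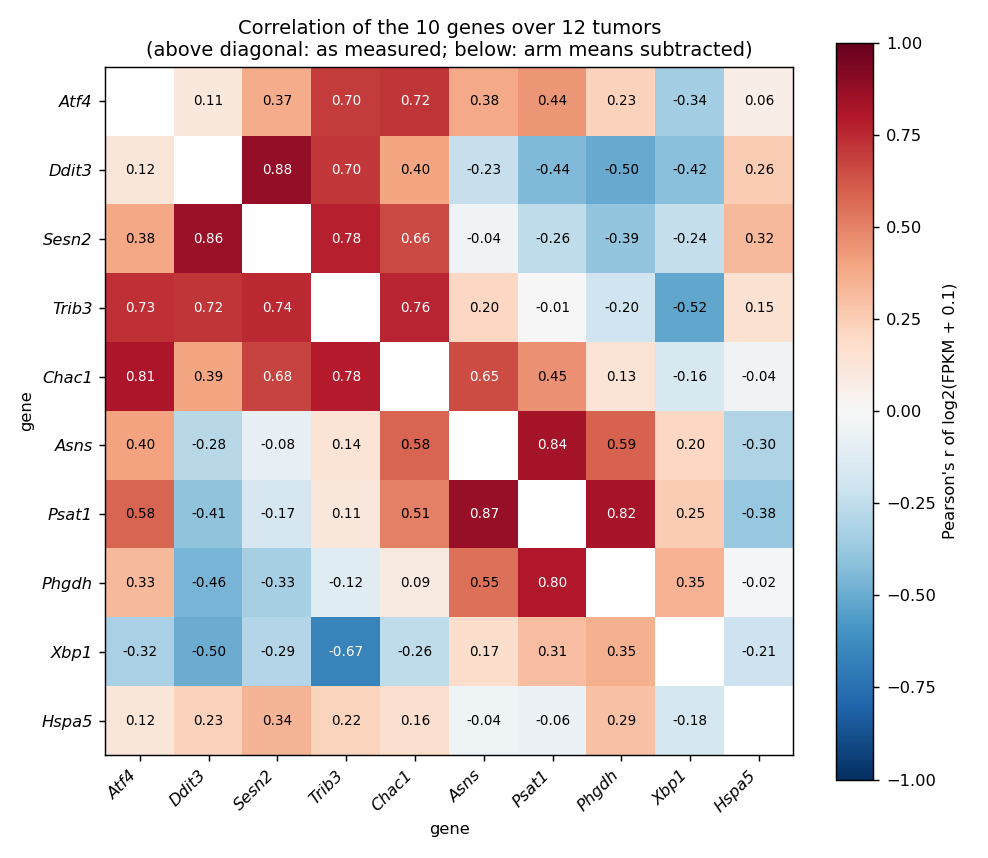
Pearson's r between log2(FPKM + 0.1) of the 10 genes (both axes) over 12 tumors, with the values as measured above the diagonal and those with arm means subtracted below it, on a colour scale from -1 to 1. In both versions r is positive among Ddit3, Sesn2, Trib3 and Chac1 and among Asns, Psat1 and Phgdh, but without the 2 farthest tumors r as measured was -0.0453 for Asns with Psat1 and -0.720 for Asns with Phgdh.

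Levels of other genes differed between the same tumors and are given beside these results. The relations were chosen with their values seen among 130 (10 members with 13 marker lists). Values within a part of the tumors are given as descriptions, without p-values. The sum of 6 hypoxia genes (Vegfa, Car9, Ndrg1, Bnip3, Slc2a1 and Egln3, 6 of 6 measured, none at 0 in all tumors) was 106, 524 and 411 with vehicle, 197, 176 and 81.8 with palbociclib, 79.1, 395 and 406 with anti-PD-1 and 127, 143 and 121 with the combination, in FPKM. It thus fell into 4 tumors at 395 or more (vehicle replicates 2 and 3, anti-PD-1 replicates 2 and 3) and 8 tumors at 197 or less, which held all tumors given palbociclib. Within those 8 tumors, Phgdh had a Pearson's r of -0.821 and a Spearman's rho of -0.810 with the hypoxia sum, and r was -0.604 without the 2 tumors farthest from the median. Over all 12 tumors Phgdh and the hypoxia sum had an r of -0.833 (permutation p = 0.00039, adjusted p = 0.0293) and a rho of -0.888 (permutation p = 0.00019, adjusted p = 0.0247). With the arm means subtracted r was -0.852 (exact permutation test within arms, p = 0.0123, adjusted p = 0.535). That test has only 1296 arrangements. After adjustment over 130 relations a single relation cannot pass it even at the smallest possible p, so it cannot decide whether a relation holds within arms. For Ddit3 and the hypoxia sum r was 0.658 over all 12 tumors (permutation p = 0.0192, adjusted p = 0.204) and rho 0.622 (permutation p = 0.034, adjusted p = 0.266). With the arm means subtracted r was 0.610. Within the 8 tumors r was -0.092 and rho -0.071, and vehicle replicates 2 and 3 and anti-PD-1 replicate 2, all among the 4 high tumors, had the 3 highest Ddit3 values. The sum of 5 skeletal muscle markers (Acta1, Ckm, Myh4, Tnnt3 and Mylpf) ranged from 0.729 to 147 FPKM. With it Phgdh had an r of 0.735 (permutation p = 0.00488, adjusted p = 0.106) and a rho of 0.755 (permutation p = 0.00625, adjusted p = 0.163). With the arm means subtracted r was 0.837 (permutation p = 0.00154, adjusted p = 0.201). The part of hypoxia in the palbociclib differences of Ddit3, Trib3 and Sesn2, and that of muscle in the levels of Phgdh, were not tested.

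The neutrophil markers Csf3r, Cxcr2 and S100a8 (3 of 3 measured) summed to 7.36, 14.6 and 133 with vehicle, 9.10, 9.28 and 5.70 with palbociclib, 9.90, 57.0 and 57.1 with anti-PD-1 and 4.71, 9.05 and 20.99 with the combination, in FPKM. Over all 12 tumors Trib3 had an r of 0.856 with this sum (permutation p = 0.0009, adjusted p = 0.0293) and a rho of 0.622 (permutation p = 0.0348, adjusted p = 0.266). The 3 tumors at 57.0 FPKM or more were also the 3 highest for Trib3, while within the remaining 9 tumors r was 0.098 and rho 0.117. Over all 12 tumors Trib3 followed the sum of 4 endothelial markers (Pecam1, Cdh5, Tek and Plvap, 14.9 to 35.5 FPKM) at r = 0.838 (permutation p = 0.00075, adjusted p = 0.0293 over the 130 relations) and rho = 0.860 (permutation p = 0.00065, adjusted p = 0.0423). The 3 tumors with the highest neutrophil sums also had the 3 highest endothelial sums. For the endothelial sum r was 0.730 without the 2 tumors farthest from the median. With the arm means subtracted it was 0.733 (permutation p within arms = 0.0478, adjusted p = 0.61), by the test that a single relation cannot pass. Psat1 followed the sum of 4 proliferation genes (Mki67, Top2a, Ccnb1 and Mcm5) at r = 0.797 (permutation p = 0.00073, adjusted p = 0.0293) and rho = 0.755 (permutation p = 0.00614, adjusted p = 0.163), with r at 0.714 without the farthest 2. With the arm means subtracted r of Psat1 with the proliferation sum was 0.668 (permutation p within arms = 0.211, adjusted p = 0.685), by the same test. That sum was 204, 158 and 172 with vehicle, 218, 225 and 218 with palbociclib, 269, 189 and 197 with anti-PD-1 and 243, 246 and 229.6 with the combination, in FPKM, lowest in vehicle replicate 2 as Psat1 was. The part of these cell types and of proliferation in the levels of Trib3 and Psat1 was not tested.

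**Figure D4:**
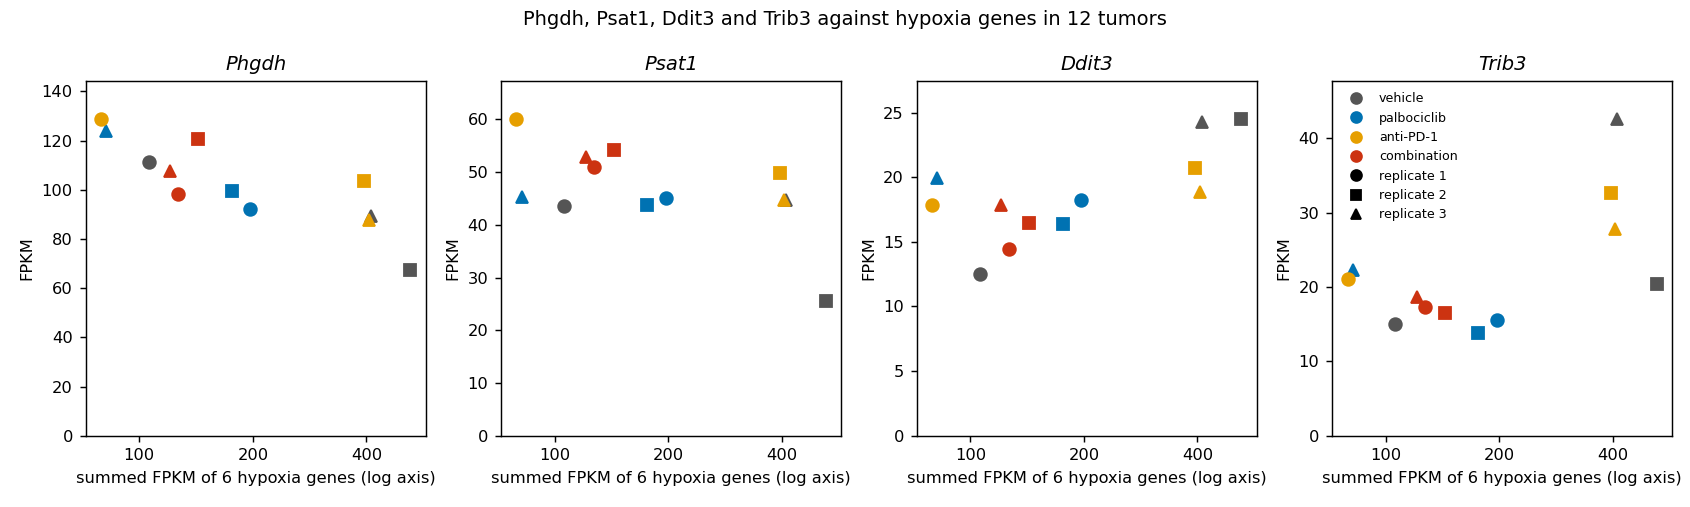
FPKM of Phgdh, Psat1, Ddit3 and Trib3 (y axes, starting at 0) against the summed FPKM of 6 hypoxia genes (x axes, log scale) in 12 tumors, with colours for arms and symbols for replicates. Phgdh was 67.5 FPKM in the tumor with the highest hypoxia sum and 129 FPKM in that with the lowest, and the 4 tumors at the right are all from arms without palbociclib.

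The other genes of these pathways were described from 8 lists with 107 genes beyond the members, of which 102 could be tested. None of the 102 passed in the palbociclib effect by limma, 7 were higher and 6 lower at an unadjusted p under 0.05 (against 0.313% and 20.5% of all genes in either direction), and 49 differences were positive and 53 negative. Their median was -0.0066 on the log2 scale against 0.06 for all genes. In each of the other 6 comparisons 0 of the 102 passed by limma as well, with 4 to 15 at an unadjusted p under 0.05, against 4.52% to 17% of all genes.

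Among the eIF2alpha kinases and phosphatase genes, Eif2ak2, the kinase PKR that senses double-stranded RNA and is itself an interferon target, had a palbociclib effect of 0.39 (SE 0.10, limma adjusted p = 0.0934) and Eif2ak1, the heme-regulated kinase, was at 0.16 (SE 0.073, limma adjusted p = 0.254). Mean FPKM of Eif2ak2 was 16.1 with vehicle, 25.5 with palbociclib, 16.9 under the antibody and 18.5 under both agents, so that most of its difference lay between the arms without the antibody. Ppp1r15a (GADD34), which brings the phosphatase to eIF2alpha, was at -0.46 (SE 0.16, limma adjusted p = 0.164) and Eif2ak4 (GCN2), the sensor of uncharged tRNA, at -0.13 (SE 0.075, limma adjusted p = 0.351). Of 15 other ATF4 targets and partners tested, 12 differences were negative and 3 positive, 4 of the negative ones with an unadjusted limma p under 0.05, where 20.5% of all genes were. Ddit4 (REDD1), an inhibitor of mTORC1 that is also induced by hypoxia, was 129 ± 97.8 FPKM (SD, n = 3) with vehicle, 32.6 ± 7.53 FPKM (SD, n = 3) with palbociclib, 71.9 ± 48.3 FPKM (SD, n = 3) with anti-PD-1 and 35.9 ± 1.22 FPKM (SD, n = 3) with the combination. For Ddit4 the palbociclib effect came to -1.13 (SE 0.50, limma adjusted p = 0.23), and that of Vegfa, which is also in the hypoxia list above, -1.10 (SE 0.40, limma adjusted p = 0.169). Gadd45a and Cebpb were also among the 4, at -0.69 (SE 0.16, limma adjusted p = 0.0807) and -0.64 (SE 0.25, limma adjusted p = 0.189). Gadd45a averaged 7.96 with vehicle, 4.82 with palbociclib, 7.46 under the antibody and 4.49 under both agents, in FPKM. Atf5 and Nupr1, stress-induced regulators, had effects of 0.24 (SE 0.22, limma adjusted p = 0.559) and 0.012 (SE 0.13, limma adjusted p = 0.969). For Atf5 the means were 12.4 with vehicle, 18.0 with palbociclib, 15.5 under the antibody and 14.1 under both agents, in FPKM, and the differences without and with the antibody had opposite signs.

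Most amino acid genes had a higher mean in the anti-PD-1 arm than with vehicle, and none passed the test. In anti-PD-1 minus vehicle, the median difference was 0.32 for 10 amino acid transporters (9 positive), 0.39 for 11 genes of serine, one-carbon, proline and cysteine synthesis (10 positive, 4 with an unadjusted limma p under 0.05) and 0.25 for 20 cytosolic aminoacyl-tRNA synthetases (19 positive, 6 with an unadjusted limma p under 0.05), against -0.033 over all genes, of which 8.4% had an unadjusted p under 0.05. In combination minus anti-PD-1, which shares the anti-PD-1 tumors with that comparison, these lists had medians of -0.17, -0.086 and -0.098. Vehicle replicate 2 enters the first of these comparisons and anti-PD-1 replicate 1 both, and these are the tumors with the lowest and highest Asns, Psat1 and Phgdh. In combination minus vehicle, which uses the same vehicle tumors, the medians were 0.094 (7 positive), 0.25 (10 positive) and 0.14 (18 positive), against 0.030 over all genes. In palbociclib minus vehicle they were 0.067 (6 positive), 0.11 (8 positive) and 0.12 (16 positive), against 0.068 over all genes. In the palbociclib effect the list medians were close to 0, at -0.035, -0.020 and 0.0048. Named by size, Shmt1 and Psph of the serine pathway were at 0.34 (SE 0.12, limma adjusted p = 0.152) and 0.31 (SE 0.11, limma adjusted p = 0.172), Pycr1 and Pck2 at -0.15 (SE 0.16, limma adjusted p = 0.592) and -0.18 (SE 0.16, limma adjusted p = 0.539). Shmt1 averaged 6.86 with vehicle, 10.5 with palbociclib, 9.31 under the antibody and 9.55 under both agents, in FPKM, and differed mainly between the arms without the antibody. The transporter genes Slc1a5, Slc7a1, Slc3a2 and Slc1a4 lay between -0.15 and 0.15, and the synthetase genes Wars, Kars, Rars and Qars between -0.083 and 0.28.

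On the ER side, 19 chaperones and folding enzymes had a median palbociclib effect of 0.10, with 12 positive and 3 of them at an unadjusted limma p under 0.05, against 20.5% of all genes. Manf, a secreted factor of ER stress, was at 0.40 (SE 0.18, limma adjusted p = 0.237) and Sdf2l1, a partner of BiP, at 0.32 (SE 0.13, limma adjusted p = 0.2). Manf averaged 28.0 with vehicle, 28.1 with palbociclib, 25.7 under the antibody and 42.0 under both agents, in FPKM, so that nearly all of its difference lay between the arms with the antibody. P4hb, protein disulfide isomerase, was at -0.15 (SE 0.082, limma adjusted p = 0.312) and Ero1l, an ER oxidase also induced by hypoxia, at -0.91 (SE 0.45, limma adjusted p = 0.277). The 8 UPR sensor genes tested had a median of -0.063, with Atf6b at 0.07, Creb3l2 at -0.20 and Ern1 (IRE1) at -0.22 (SE 0.15, limma adjusted p = 0.406). The 14 genes of ER-associated degradation and the secretory pathway had a median of 0.083, among them Sec23b at 0.19, Derl1 at 0.15, Herpud1 at -0.15 and Sec24d at -0.26 (SE 0.11, limma adjusted p = 0.219).

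**Figure D5:**
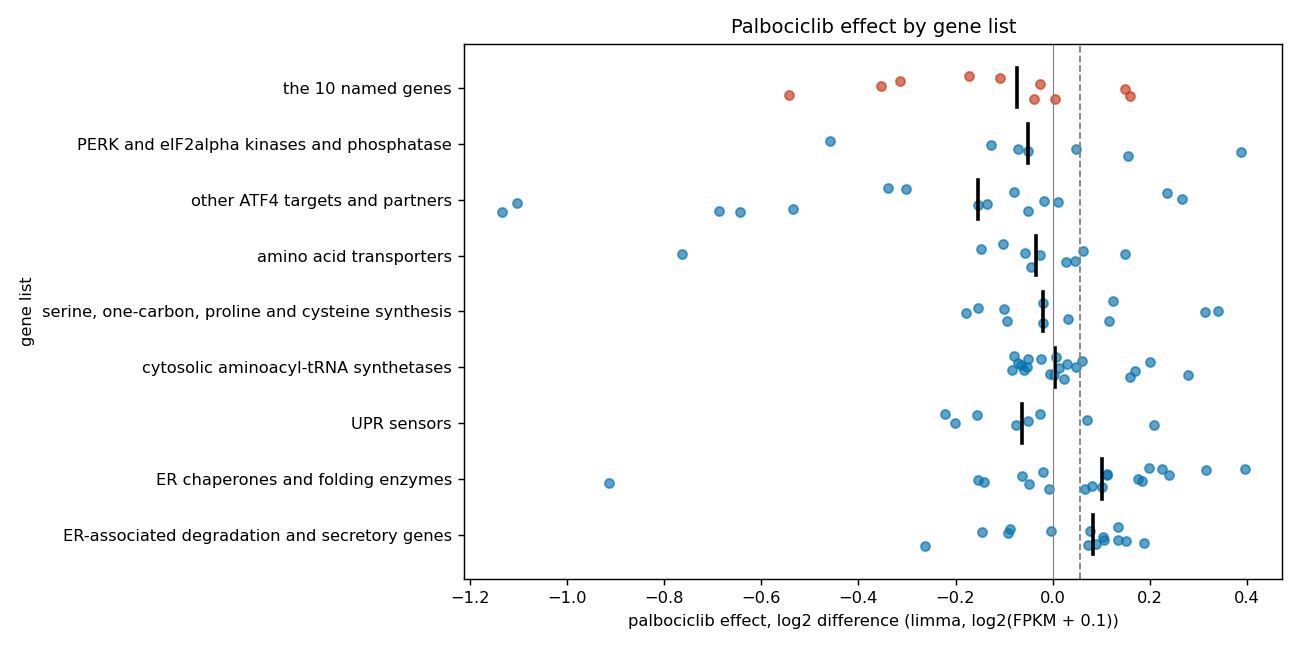
Palbociclib effect on the log2 scale (x axis) of each tested gene of the 8 pathway lists and of the 10 named genes (y axis), with points for genes, thick lines for list medians, a solid line at 0 and a dashed line at the median of all 15350 genes, 0.06. The points furthest to the left are Ddit4, Vegfa and Ero1l, and no gene shown passed after adjustment.

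The genes most alike to 4 of the members in their course over the 12 tumors were found among 11186 genes whose mean FPKM reached 1, by Pearson's r of log2 values and as a description. For Atf4 they were Pycr1 (r = 0.925), Slc1a4 (0.916), Trmt10c (0.902), Utp14a (0.861) and Sod2 (0.860). For Asns they were Ttc21b (0.959), Ddx18 (0.958), Krr1 (0.951), Dis3 (0.949) and Zfp143 (0.939). For Ddit3 they were Gm13056 (0.906), Rsc1a1 (0.879), Sesn2 (0.878), Map2k6 (0.856) and Ppp1r15a (0.855). For Hspa5 they were Itm2c (0.849), Zfp952 (0.836), Saraf (0.795), Gabarap (0.783) and Tardbp (0.775). Pycr1 and Slc1a4 are in the amino acid lists above, as Ppp1r15a is in the list of the eIF2alpha phosphatase, and none of the 5 genes nearest to Hspa5 was in a list of ER genes.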

How the data were processed

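RNA was sequenced from 12 LLC1-shLkb1 tumors, 3 per arm, and the arms and replicate numbers come from the sample labels. The authors deposited 1 table of FPKM per tumor. The submitters' processing notes name HISAT2 and the GRCm38 (mm10) build, and the counting tool and the annotation are not given in the sources used here. FPKM divides by gene length and by mapped fragments, so a few very abundant genes in a tumor lower the values of the rest, and no further scaling between tumors is stated. Where a symbol was repeated (67 of 34745 entries), the entry with the highest mean was kept. The depth was estimated from the steps of low values (3804 genes, 43.6% of them at the most frequent value), so depth ratios are firmer than the totals.

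Genes whose mean FPKM reached 0.1 were compared by limma 3.58.1 in R 4.3.3 on log2 values with a pseudocount of 0.1, using a mean for each arm, a trended prior and Benjamini-Hochberg adjustment (threshold 0.05, two-sided). The log2 scale with this pseudocount understates changes of low genes. The code was tested on simulated data. With 200 genes changed in the palbociclib effect, limma recovered 140 at a log2 change of 1, with 6 false calls. At a log2 change of 2 it recovered 179, with 23 false calls. Correlations used 100000 permutations, or all arrangements where called exact (Python 3.11.15, numpy 2.4.6, scipy 1.17.1). Figures were drawn with matplotlib 3.10.9. Gene positions are from GENCODE M21 and promoters from RefSeq (GRCm38.p6).

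The members and the lists were chosen with earlier results of these data known. The genes named are all members, Stk11, in each pathway list up to 2 genes with the most positive and up to 2 with the most negative palbociclib effect among those whose mean FPKM reached 1 (only 1 such UPR sensor gene was positive), and the 5 genes most correlated with each of Atf4, Asns, Ddit3 and Hspa5. Gadd45a and Cebpb are named besides, for their unadjusted limma p under 0.05 among the ATF4 targets. Of the 13 marker lists, those for epithelial, fat, skin, skeletal muscle, hypoxia, neutrophil, endothelial and proliferation genes are described in the results. The sums of the other lists ranged over the 12 tumors from 23.5 to 82.0 FPKM (pan-leukocyte), 0.583 to 5.15 (T cell), 67.5 to 164 (macrophage), 39.5 to 63.9 (B or plasma cell) and 146 to 436 (fibroblast). Other settings tried were a pseudocount of 1 or 0.01, a minimum mean FPKM of 1, no minimum beyond 0, TPM rescaling, quantile normalization, no trend, a replicate block, only the arms compared, and leaving out each tumor.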

Additional observations from a re-analysis of the deposited data

How the results depend on the processing

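No member passed in any of the 7 comparisons under any alternative except Ddit3 in the palbociclib effect without vehicle replicate 1, so that leaving out 1 tumor gave 0 to 1 member there. Of 145 recomputed counts of members, 144 were 0. Of 200 alternative values of single members in the palbociclib effect, 187 had the same direction and side of the threshold and 12 changed sign. Xbp1 was -0.016 after rescaling to TPM and -0.041 after quantile normalization, and leaving out 1 tumor gave -0.024 to 0.036 for Xbp1, -0.56 to 0.023 for Chac1, -0.19 to 0.078 for Asns and -0.076 to 0.011 for Hspa5. Correlated pairs numbered 5, fell to 0 with the arm means subtracted and ranged from 1 to 7 with 1 tumor left out. With the arm means subtracted, the smallest unadjusted permutation p over 1296 arrangements was 0.0116. The cause of these changes was not tested. Over all genes the palbociclib effect called 48 genes, against 11 with any FPKM above 0, 0 without a trend and 0 to 772 with 1 tumor left out. Quantile normalization called 28 higher and 16 lower, against 38 and 10, and moved the median of all genes from 0.06 to -0.027. Palbociclib minus vehicle called 22 genes, against 33 with any FPKM above 0, 6 without a trend, 1 after quantile normalization, 34 after TPM rescaling, 0 with only the arms compared and 1 to 56 with 1 tumor left out. The replicate numbers share no stated batch, and same-numbered tumors correlated at -0.213 to 0.453 in their deviations from arm means (7 of 18 pairs over 0.1, 6 of 12 tumors closest to their own number). With a replicate block, the palbociclib effect called 129 genes and palbociclib minus vehicle 51, and 0 members in each of the 7 comparisons. With 3 tumors per arm, the intervals of Chac1 and Trib3 are wide, and low genes carry counting error.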
